A study of Homo sapiens with 3 samples.

Results

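The 10 genes described here encode the mTOR kinase and its closest partners: MTOR, RPTOR, RICTOR, MLST8, DEPTOR, AKT1S1, TSC1, TSC2, RHEB and MAPKAP1. Their clusters were taken by gene name from tables of MATR3 binding sites. Together they held 799 of the 388807 read clusters listed in 3 biological replicates, and they are 10 of 13557 gene names in those tables. The clusters come from PAR-CLIP with an antibody against MATR3 in HEK293, an established human embryonic kidney line, of wild-type genotype and with no treatment. The 3 replicates form 1 group with no control library, so genes were compared within replicates and the only error is the spread between replicates. PAR-CLIP crosslinks a protein to RNA that carries a photoreactive uridine analogue, and the crosslinked uridines are read as T-to-C changes. No measure of transcript levels was used here, so a binding level cannot be told apart from the amount of each RNA.

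mTOR is a protein kinase that couples nutrients and growth factors to protein synthesis, growth and autophagy. It works in a pair of complexes: complex 1 holds RPTOR, which recruits substrates, and AKT1S1 (PRAS40), an inhibitor, while complex 2 holds RICTOR and MAPKAP1 (SIN1). MLST8 and the inhibitor DEPTOR occur in both. TSC1 and TSC2 form a complex that switches off the small GTPase RHEB, which in its GTP form activates complex 1. MATR3 (matrin 3) is a nuclear matrix protein with a pair of RNA recognition motifs that binds pyrimidine-rich intronic RNA and acts in splicing.

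A cluster is a group of overlapping reads with T-to-C changes. Every listed cluster of these tables had at least 4 reads and at least 2 conversion locations, so a gene without a cluster was below that limit and not shown to be unbound. Replicate 1 had 262 clusters of member genes, replicate 2 had 288 and replicate 3 had 249. Their reads numbered 3017, 3271 and 2601, which were 0.208%, 0.246% and 0.191% of all reads in clusters with a gene name. Those totals were 1448303, 1328093 and 1358924 reads. The median member cluster had 9, 8 and 9 reads, and 35.4% ± 5.77 of member clusters (SD, n = 3) rested on at most 2 distinct reads. The sequence of each of the 799 clusters equalled hg38 at its coordinates and strand and occurred once on the main chromosomes, so none was placed in a repeated copy.

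The sequences that follow are the sites that recurred between replicates. A site is the union of same-strand clusters with an overlap of 1 nt or more. The 799 clusters formed 705 sites, of which 5 had a cluster in all 3 replicates, 76 in 2 and 624 in 1. The count of 5 fell to 3 among clusters of median read count or more, to 2 with 3 or more conversion locations and to 1 with 50% overlap of both clusters. The 5 sites lay in RICTOR, RPTOR (2 sites), MAPKAP1 and AKT1S1. The intronic sites are printed 5′ to 3′ on the transcribed strand, with capitals for the bases that all 3 replicates covered. In the second RPTOR site the clusters were linked in a chain and no base was covered in all 3.
RICTOR, intron 2, chr5:39067932-39068034 (hg38, minus strand): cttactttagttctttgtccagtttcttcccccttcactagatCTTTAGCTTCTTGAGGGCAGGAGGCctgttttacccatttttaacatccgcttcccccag
RPTOR, intron 3, chr17:80671115-80671182 (hg38, plus strand): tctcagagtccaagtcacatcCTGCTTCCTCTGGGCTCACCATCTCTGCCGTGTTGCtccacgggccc
RPTOR, intron 6, chr17:80774821-80774891 (hg38, plus strand): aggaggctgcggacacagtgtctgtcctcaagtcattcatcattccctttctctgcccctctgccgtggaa
MAPKAP1, intron 1, chr9:125691361-125691623 (hg38, minus strand): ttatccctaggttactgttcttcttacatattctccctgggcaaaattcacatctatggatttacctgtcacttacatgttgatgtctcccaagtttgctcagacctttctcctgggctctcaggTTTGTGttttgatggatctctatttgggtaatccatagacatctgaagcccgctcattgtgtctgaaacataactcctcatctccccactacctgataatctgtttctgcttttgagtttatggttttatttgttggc

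These sites were rich in pyrimidines: 68.9% of bases in the RICTOR site, 66.2% and 60.6% in the RPTOR sites and 63.5% in the MAPKAP1 site. The RICTOR site held ATCTT, which as RNA (AUCUU) is a known MATR3 motif, once, across the border of the shared bases. The other 3 held no ATCTT. The RICTOR site had 15, 25 and 7 reads in replicates 1, 2 and 3. The RPTOR site in intron 3 had 13, 12 and 11 reads, and the one in intron 6 had 11, 7 and 8. The MAPKAP1 site had 40, 96 and 15 reads, the most of the 5, in a union of 263 nt of which 6 nt were covered in all 3 replicates. The AKT1S1 site, chr19:49869743-49869851 in the 3′ UTR, had 9, 23 and 15 reads with no base covered in all 3. Thus 3 of the 5 sites shared a base between all replicates.

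For 4 members without such a site, the site with most reads in 2 replicates is shown, chosen after the values were seen. Capitals mark the bases that both of these replicates covered.
MTOR, intron 28, chr1:11195225-11195314 (hg38, minus strand): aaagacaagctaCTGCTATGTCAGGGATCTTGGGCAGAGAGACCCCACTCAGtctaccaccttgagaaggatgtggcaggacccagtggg
RHEB, intron 3, chr7:151482966-151483044 (hg38, minus strand): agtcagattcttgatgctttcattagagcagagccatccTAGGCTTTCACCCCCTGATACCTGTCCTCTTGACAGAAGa
MLST8, intron 6, chr16:2207643-2207751 (hg38, plus strand): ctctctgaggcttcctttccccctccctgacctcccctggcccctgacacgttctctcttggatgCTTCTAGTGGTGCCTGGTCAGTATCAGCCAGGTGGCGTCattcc
TSC2, intron 10, chr16:2060164-2060227 (hg38, plus strand): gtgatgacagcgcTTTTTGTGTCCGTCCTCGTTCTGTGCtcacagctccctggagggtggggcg

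The MTOR site had 33 and 28 reads in replicates 1 and 3, the RHEB site 32 and 15 in replicates 1 and 2, the MLST8 site 14 and 22 in replicates 2 and 3, and the TSC2 site 17 and 8 in replicates 1 and 3. The MTOR site differed in composition: 42.2% of its bases were pyrimidines, against 57.0% at RHEB, 67.9% at MLST8 and 56.2% at TSC2. It held the ATCTT motif once, and the other 3 sites held none. Over all 81 member sites found in 2 or 3 replicates, 11 (13.6%) held ATCTT, and the median length was 76 nt. The share over recurring sites of other genes was not computed, so this count has no background.

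The question the gene comparison addresses is how MATR3 reads are spread over the pathway. Reads were scaled so that each replicate had 1000000 reads over its gene-annotated clusters, and divided by the gene's length, which gives normalised reads per kb. On that scale AKT1S1 stood highest and RHEB next, MLST8, RPTOR, TSC2, RICTOR and MTOR formed a middle group, and MAPKAP1 was lowest of the 8 genes with clusters in every replicate. As a background, 40.8% of 20007 protein-coding genes were listed in 3 replicates, 7.15% in 2 and 7.89% in 1, and 44.2% had no cluster. Of the 10 members 8 were listed in 3 (7 under each filter on reads, distinct reads or conversion locations), TSC1 in 2 and DEPTOR in 1. Among protein-coding genes of like length (at most 25% longer or 20% shorter than the member), the share listed in 3 ran from 18.6% for MLST8 to 60.3% for MAPKAP1.

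**Figure D1:**
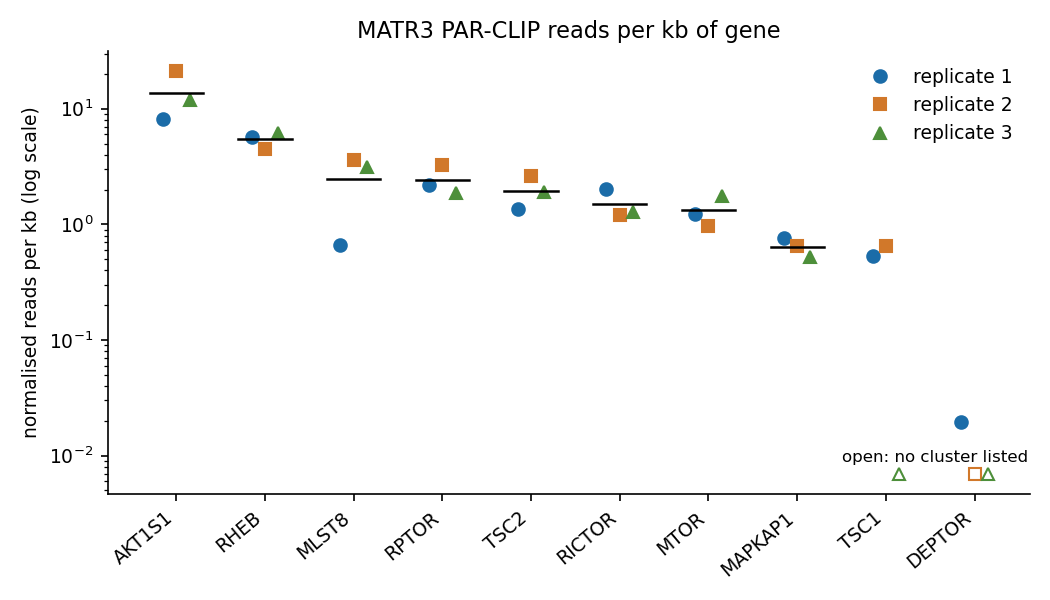
Normalised MATR3 PAR-CLIP reads per kb of gene (log axis) for the 10 members, 1 symbol per replicate, with the mean of 3 replicates as a bar for the 8 genes with clusters in each; open symbols mark replicates with no listed cluster and carry no value. AKT1S1 lies between 8.13 and 21.2 and RHEB between 4.45 and 6.19, above the symbols of the other genes.

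MTOR, the kinase, spans 156022 bases at chr1:11106535-11262556 on the minus strand. Its clusters numbered 24, 24 and 36, with 279, 201 and 376 reads, in replicates 1, 2 and 3. Its density was 1.23, 0.970 and 1.77 normalised reads per kb, a mean of 1.33 ± 0.409 (SD, n = 3), highest in replicate 3 and lowest in replicate 2. Of its 84 clusters, 80 were annotated as intronic, 1 as coding and 3 as 5′ UTR. The 3 of class 5′ UTR lay between 11131146 and 11131414, inside intron 38 of the reference transcript (MANE Select), far from its start. MTOR's longest intron, intron 28 of 31740 nt, is 21.5% of its intron length and held 40.7% ± 4.46 of its clusters. It held 11, 9 and 14 clusters in replicates 1, 2 and 3. Of these, 6, 1 and 3 lay opposite exons of another gene, ANGPTL7, described below. The share without them was not computed.

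RPTOR, the defining subunit of complex 1, is the longest member, 421553 bases at chr17:80544819-80966371 on the plus strand. It had 123, 165 and 109 clusters with 1349, 1815 and 1064 reads, and so held 47.0% ± 7.56 of all member reads. Its density was 2.21, 3.24 and 1.86 normalised reads per kb, a mean of 2.44 ± 0.720, highest in replicate 2. All but 1 of its 397 clusters were intronic. The reads were spread over many clusters: the largest in each replicate had 37, 91 and 37 reads, which were 2.74%, 5.01% and 3.48% of the gene's reads. The largest of all, 91 reads at chr17:80552178-80552398 in intron 1, was in replicate 2, and replicate 3 had 9 reads at this site. Intron 3, with 15.4% of the intron length, held 127 clusters, 32.0% of the gene's total, in numbers of 40, 48 and 39.

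AKT1S1, the complex 1 inhibitor PRAS40, is a short gene of 9427 bases at chr19:49869033-49878459 on the minus strand. It had 6, 11 and 10 clusters with 111, 266 and 152 reads, and a density of 8.13, 21.2 and 11.9 normalised reads per kb. The mean of 13.7 ± 6.76 was the highest of the members, with replicate 2 well above the other two. With only clusters of the deposited class intron, over the intron length of the MANE Select transcript, the density was 5.80 ± 6.92. The same count gave 5.70 ± 0.938 in RHEB and 5.51 ± 3.53 in MLST8. Replicate 1 listed no AKT1S1 cluster of class intron, and the count leaves out clusters of other classes that lie in introns. By position, intron 1 of AKT1S1 held 4 clusters in each replicate, with 339 reads in all. The class-based value thus understates the density over AKT1S1 introns. AKT1S1 was also the only member with most clusters outside the intron class. Of 27 clusters, 11 were in the 3′ UTR with 161 reads, 9 carried the class 5′ UTR with 194 reads, 4 were intronic with 152 reads, and 1 each were coding, coding-intron and start codon. The 9 clusters of class 5′ UTR lay in intron 1 of the MANE Select transcript, which spans 49873303 to 49877236. Its largest clusters were 30 reads at chr19:49876835-49876937 in replicate 1, 103 reads at chr19:49875108-49875310 in replicate 2 and 35 reads at chr19:49876333-49876465 in replicate 3, which all lie within that intron. T-to-C changes were in 60.4%, 77.1% and 75.3% of AKT1S1 reads, against 84.2% to 93.7% in MTOR, RPTOR, RICTOR, MAPKAP1 and RHEB in each replicate. Other members reached values like those of AKT1S1. MLST8 had 100%, 72% and 77.3% in replicates 1, 2 and 3, and TSC1 had 76.7% and 93.8% in replicates 1 and 2. TSC2 had 85.2%, 88.2% and 82.2%.

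RICTOR, the defining subunit of complex 2, spans 136483 bases at chr5:38937920-39074402 on the minus strand. It had 26, 24 and 20 clusters with 399, 220 and 235 reads. Its density was 2.02, 1.21 and 1.27 normalised reads per kb, a mean of 1.50 ± 0.450, with replicate 1 highest. All 70 clusters were intronic. The largest cluster of each replicate lay in the same stretch of intron 2, at chr5:39068362-39068526 with 65 reads in replicate 1, at chr5:39067965-39068034 with 25 in replicate 2 and at chr5:39068136-39068225 with 45 in replicate 3. These 3 clusters do not overlap each other. The one of replicate 2 belongs to the 3-replicate site printed above. Intron 2, with 41.7% of the intron length, held 51.7% ± 2.89 of the clusters.

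MAPKAP1, which encodes the complex 2 subunit SIN1, spans 269842 bases at chr9:125437393-125707234 on the minus strand. It had 30, 18 and 21 clusters with 296, 231 and 190 reads. Its density of 0.757, 0.645 and 0.518 normalised reads per kb, a mean of 0.640 ± 0.120 differed little between replicates. Intron 1, 12.9% of the intron length, held 40.3% ± 7.15 of the clusters, whereas the longest intron, intron 4 with 27.0% of the length, held 27.8% ± 9.62. The largest cluster in replicate 2, 96 reads at the site printed above, made up 41.6% of the gene's reads in that replicate.

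MLST8, a subunit of both complexes, is the shortest member with 5206 bases at chr16:2204248-2209453 on the plus strand. It had 1, 2 and 1 clusters with 5, 25 and 22 reads, and 0.663, 3.62 and 3.11 normalised reads per kb (mean 2.46 ± 1.58). All 4 clusters lay in intron 6, its longest, of 864 nt. The value of replicate 1 rested on 1 distinct read. DEPTOR, the inhibitor of both complexes, spans 177202 bases on chromosome 8 and had 1 intronic cluster of 5 reads and 1 distinct read, in replicate 1. With no cluster in the other replicates, no level can be given for DEPTOR beyond being below the listing limit there.

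TSC1, the scaffold of the TSC complex, spans 55527 bases at chr9:132891348-132946874 on the minus strand. It had 6 clusters with 43 reads in replicate 1, 4 with 48 in replicate 2 and none in replicate 3, which gave 0.535 and 0.651 normalised reads per kb in replicates 1 and 2. Of its 10 clusters, 8 lay in intron 8, which is 19.9% of its intron length, and none overlapped a cluster of the other replicate. TSC2, the subunit with the GTPase-activating domain, spans 41525 bases at chr16:2047967-2089491 on the plus strand. It had 8, 17 and 12 clusters with 81, 145 and 107 reads, and 1.35, 2.63 and 1.90 normalised reads per kb (mean 1.96 ± 0.643), lowest in replicate 1.

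RHEB, the GTPase that TSC2 acts on, spans 54109 bases at chr7:151466012-151520120 on the minus strand. It had 37, 23 and 40 clusters with 449, 320 and 455 reads, all in introns. Its density was 5.73, 4.45 and 6.19 normalised reads per kb, a mean of 5.46 ± 0.899, lowest in replicate 2. Intron 1 is 54.9% of its intron length and held 69.4% ± 3.91 of its clusters. In replicate 2 a single cluster of 101 reads at chr7:151515171-151515418 held 31.6% of the gene's reads, whereas the largest clusters of replicates 1 and 3 held 9.35% and 7.03%.

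The difference between genes was taken within each replicate on the log2 scale and tested over replicates with an exact two-sided sign-flip permutation test. With 3 replicates its smallest p is 0.25, so no single difference can pass a threshold of 0.05; 11 differences were computed, and p-values are given unadjusted for that reason. RPTOR exceeded RICTOR by 0.13, 1.42 and 0.55, a mean of 0.70 ± 0.66 (exact p = 0.25, higher in 3 of 3 replicates). RPTOR exceeded MTOR by 0.84, 1.74 and 0.07, a mean of 0.88 ± 0.84 (exact p = 0.25), so both differences were close to their SD. Of the complex 2 pair, MAPKAP1 minus RICTOR was -1.41, -0.91 and -1.29, a mean of -1.21 ± 0.26 (exact p = 0.25), a difference several times its SD. Of the TSC pair, TSC2 exceeded TSC1 by 1.33 and 2.01 in the 2 replicates that list TSC1, a mean of 1.67 ± 0.48, for which 0.5 is the smallest p that the exact test allows and the p obtained.

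Along the order of density, 3 of 7 neighbouring pairs kept their order in 3 of 3 replicates. The pairs were formed from the ranking of these same densities, so their signs and p-values describe the order and are no independent test of it. AKT1S1 exceeded RHEB by 1.23 ± 0.91 on the log2 scale, RHEB exceeded MLST8 by 1.47 ± 1.46 and MTOR exceeded MAPKAP1 by 1.02 ± 0.65 (exact p = 0.25 for each). The middle group had no settled order. RPTOR exceeded TSC2 in 2 of 3 replicates by 0.33 ± 0.37 (exact p = 0.5), TSC2 exceeded RICTOR in 2 of 3 by 0.37 ± 0.87 (exact p = 0.75), and RICTOR exceeded MTOR in 2 of 3 by 0.18 ± 0.61 (exact p = 0.75). MLST8 minus RPTOR was -0.28 ± 1.30 (exact p = 1), with the sign of replicate 1 opposite to the others.

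Longer genes offer more room for clusters, so each member was set beside the protein-coding genes of like length, in clusters per kb averaged over replicates. RPTOR had 0.314 clusters per kb, against a median of 0.00329 over 400 genes of like length, and exceeded 99.5% of them. RHEB had 0.616 against a median of 0.0461 and exceeded 97.4% of 2303 genes. AKT1S1 had 0.955 and exceeded 96.6% of 1803 genes, of which 28.5% had clusters in all 3 replicates and whose median was 0. By these means the 3 members lay above the 95th percentile, where 4.96% of all protein-coding genes lie. In single replicates RPTOR was at 99.5 in each, whereas AKT1S1 was at 91.2 in replicate 1 and RHEB at 90.6 in replicate 2. MTOR (0.179 clusters per kb) exceeded 84.2% of its like-length genes, MLST8 (0.256) 81.4%, TSC2 (0.297) 81.0%, RICTOR (0.171) 80.7% and MAPKAP1 (0.0852) 77.8%. TSC1 (0.0600) was near the middle, above 54.2%, and DEPTOR was above 31.1%. The median percentile of the 10 members was 81.2, and that of all protein-coding genes, many of which have no cluster, was 42.3.

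**Figure D2:**
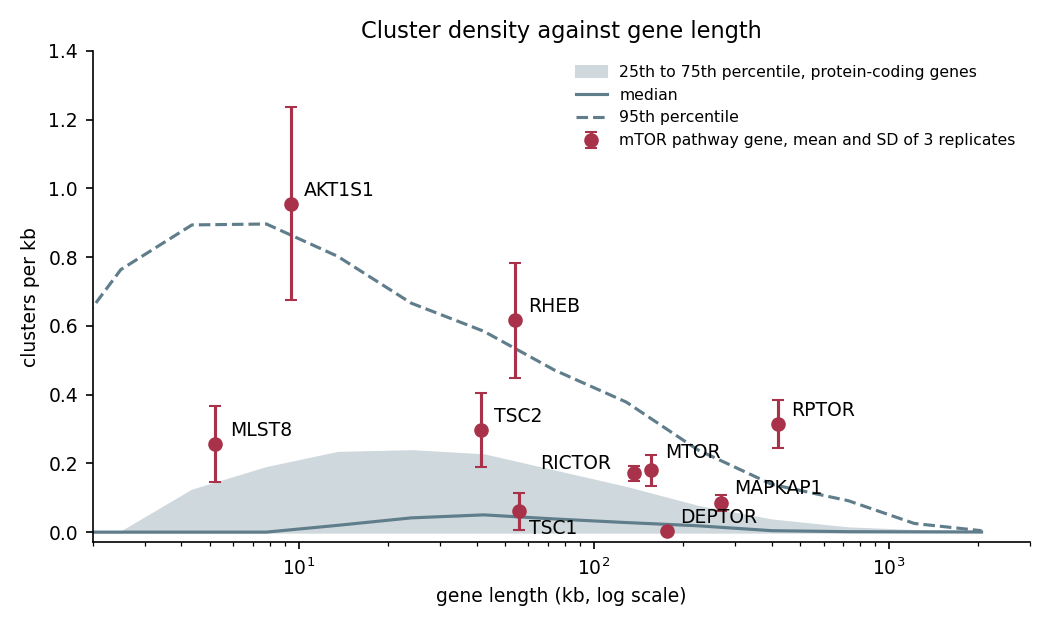
Clusters per kb of each member (points, mean; bars, SD of 3 replicates) against gene length in kb on a log axis, with the median, the 25th to 75th percentile band and the 95th percentile of protein-coding genes by length. RPTOR, RHEB and AKT1S1 lie above the line of the 95th percentile, and DEPTOR lies below the median.

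By class, 764 of the 799 member clusters were intronic, 14 were in 3′ UTRs, 14 carried the class 5′ UTR, 3 were coding and the remaining 4 mixed or at the start codon. The share in introns was 95.6% ± 1.29 for the members and 83.4% ± 0.420 for all other gene-annotated clusters. The difference was 12.2 ± 0.881 percentage points, in the same direction in 3 of 3 replicates (exact sign-flip p = 0.25). Without RPTOR it was 8.02 ± 2.14 points. RHEB, RICTOR, MLST8 and DEPTOR had intron clusters only. Exons of the reference transcript cover 1.2% of MAPKAP1, 1.62% of RPTOR and 5.59% of MTOR but 18.8% of AKT1S1 and 32.1% of MLST8, so most members consist largely of intron.

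**Figure D3:**
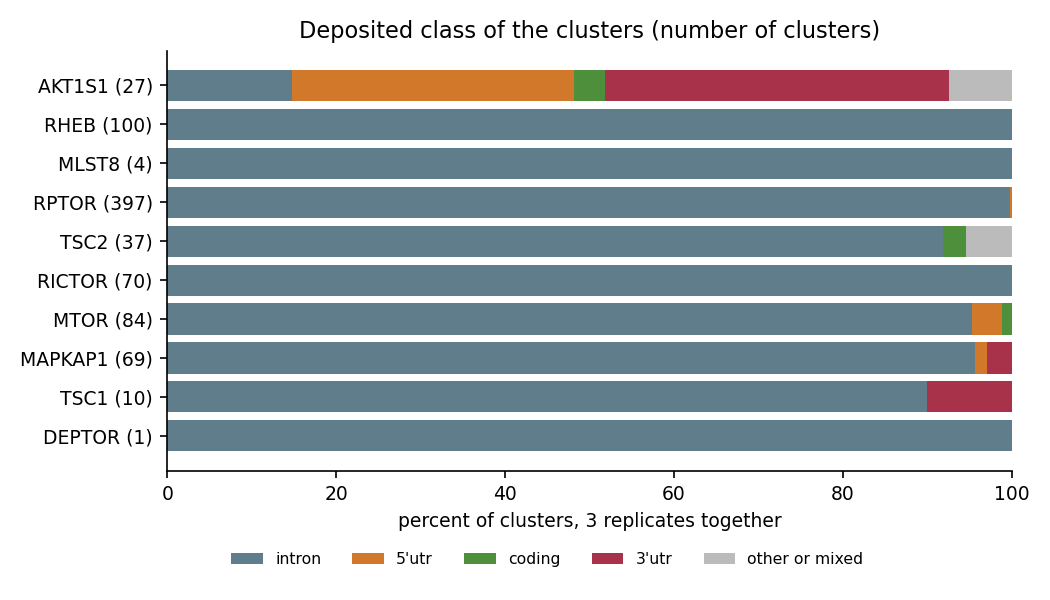
Share of each member's clusters by deposited class, in percent of the clusters of 3 replicates together, with the number of clusters beside each name. AKT1S1 is the member with most clusters outside the intron class, while RHEB, RICTOR, MLST8 and DEPTOR show that class alone.

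The share of member clusters found in at least 1 other replicate differed from that of other genes by less than the spread between replicates. A cluster of a member overlapped a cluster of another replicate in 22% ± 2.16 of cases, against 21.7% ± 0.672 of other gene-annotated clusters, a difference of 0.266 ± 1.54 percentage points (exact sign-flip p = 0.75, higher in 2 of 3 replicates). Over all gene-annotated clusters 21.7% overlapped a cluster of another replicate and 2.53% overlapped clusters of both. Of the members' clusters, 175 of 799 (21.9%) overlapped a cluster of another replicate. Clusters of both were overlapped by 11 of 799, a smaller share than the 2.53%, and this difference was not tested. By gene the share was 44.4% of 27 clusters for AKT1S1, 26.1% of 69 for MAPKAP1, 25% of 84 for MTOR, 24.0% of 100 for RHEB, 21.4% of 70 for RICTOR, 19.4% of 397 for RPTOR and 16.2% of 37 for TSC2. The clusters of the other replicates cover more of some genes than of others: 12.0% of the length of AKT1S1 and 6.23% of RHEB, but 2.82% of RPTOR, 1.59% of RICTOR, 1.44% of MTOR and 0.696% of MAPKAP1. MAPKAP1 therefore had recurrence like that of RHEB over a far smaller covered share.

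Recurrence was also read over wider windows. For each replicate left out in turn, the 2-kb window with most reads in the other replicates was taken and the share of the left-out replicate's reads that fell in it was measured. In MAPKAP1 the window, 14 to 18 kb from the gene start, held 22.3%, 9.96% and 13.2% of the left-out reads, a mean of 15.1% ± 6.40 in 0.741% of the length. In MTOR it held 6.91% ± 6.79 in 1.28% of the length, in RICTOR 5.39% ± 4.70 in 1.47%, in RHEB 5.07% ± 4.54 in 3.70% and in RPTOR 0.147% ± 0.254 in 0.474%. In each of the 4 genes other than MAPKAP1, at least 1 left-out replicate had no listed cluster in the window. The windows were laid in fixed steps from the gene start, so an edge could split a group of nearby clusters. In RICTOR the largest clusters of replicates 1, 2 and 3 were centred at 5.96, 6.40 and 6.22 kb. The edge at 6 kb thus divided them, and the low RICTOR share does not show a lack of recurrence there. Windows with other edges were not run. The windows were laid after the clusters had been seen.

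**Figure D4:**
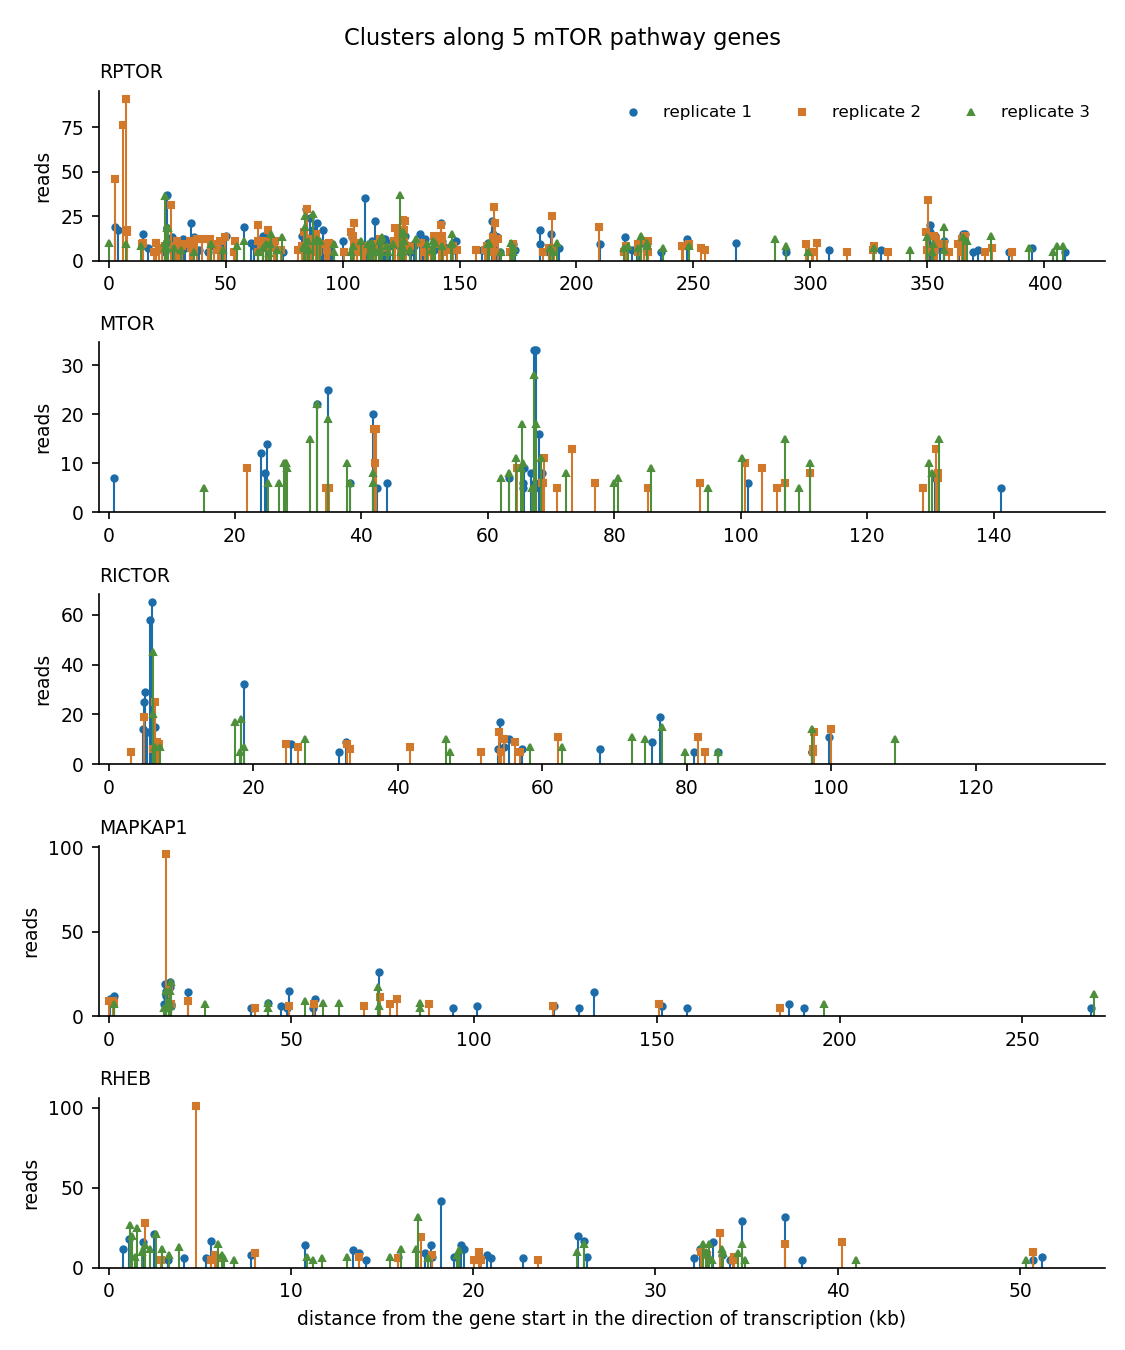
Read count of each cluster against distance from the gene start in kb, in the direction of transcription, for the 5 members with most clusters, with 1 colour and symbol per replicate. MAPKAP1 shows clusters of all replicates near 14 to 18 kb, RICTOR its largest clusters close to the gene start, and RPTOR clusters along much of its length.

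Position along the gene was measured for the 7 members with at least 10 clusters in a replicate. In 6 of them the first 25% of the gene's length held more clusters than the last, and in AKT1S1 the last held more. The share of all genes with more clusters in the first than in the last was not computed, so this count has no background. In MAPKAP1 63.4% ± 7.94 of clusters lay in the first 25% of the gene's length and 2.70% ± 2.44 in the last. In RICTOR the shares were 45.6% ± 4.19 and 1.67% ± 2.89, in RHEB 35.9% ± 10.1 and 4.92% ± 0.534, and in RPTOR 36.5% ± 2.32 and 13.7% ± 0.854. In MTOR they were 25% ± 11 and 11.1% ± 4.81, and the second 25% of its length held most, 45.4% ± 11.6. The second 25% also held most in RPTOR (39.5% ± 3.35) and in TSC2 (52.7% ± 7.97 over 2 replicates, with 27.2% in the first and 4.17% in the last). AKT1S1, over 2 replicates, had 15% ± 21.2 in the first and 52.3% ± 3.21 in the last, where its 3′ UTR clusters lie. Over all genes with at least 10 clusters in a replicate, the mean shares were 33.4%, 23.8%, 21.7% and 21.1% from the first such stretch to the last. RPTOR and RHEB were thus near that mean in the first stretch, and RICTOR and MAPKAP1 above it.

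In sequence, intron clusters were compared with the introns of the same gene, for the 5 genes with most of them. Pyrimidines made up 57.0% ± 2.81 of cluster bases in MTOR, 57.7% ± 1.19 in RPTOR, 57.2% ± 1.85 in RICTOR, 59.5% ± 1.71 in MAPKAP1 and 56.9% ± 0.947 in RHEB. These values exceeded the gene's own introns in 3 of 3 replicates in each gene, by 5.03 points in MTOR, 6.06 in RPTOR, 5.44 in RICTOR, 8.54 in MAPKAP1 and 5.28 in RHEB (exact sign-flip p = 0.25 each). The share was not particular to the members. It was 57.4% ± 0.951 over all member intron clusters and 57.5% ± 0.854 over other intron clusters. That difference was -0.05 ± 0.24 points (exact sign-flip p = 0.75). A listed cluster needs at least 2 converted T positions, and the effect of this requirement on composition was not tested. T alone exceeded the gene's own introns by 1.73 points in MTOR, 3.33 in RPTOR, 1.28 in RICTOR and 4.35 in MAPKAP1. In RHEB the T difference was 0.07 points, above the introns in 1 of 3 replicates. GC content varied by gene, from 39.8% ± 2.28 in RICTOR clusters to 62.2% ± 3.22 in TSC2 clusters. In the 5 genes it also exceeded the gene's own introns in 3 of 3 replicates each. The excess was 2.99 points in MTOR, 1.51 in RPTOR, 4.30 in RICTOR, 1.24 in MAPKAP1 and 3.93 in RHEB (exact sign-flip p = 0.25 each). TSC2 clusters were not compared with their own introns.

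ATCTT was searched on the transcribed strand of the deposited sequences. It was in 8.90% ± 2.49 of member intron clusters and 9.69% ± 0.362 of other intron clusters, a difference of -0.791 ± 2.36 percentage points (exact sign-flip p = 0.75). RICTOR, singled out after its values were seen, held it in 6 of 26, 5 of 24 and 6 of 20 clusters. That was 5.26, 5.15 and 6.67 motifs per kb of cluster, a mean of 5.69 ± 0.851, against 1.83 per kb in its introns (difference 3.87 ± 0.851, exact sign-flip p = 0.25). In the other 4 genes the clusters exceeded their introns in 2 of 3 replicates each: 2.07 against 1.26 motifs per kb in MTOR, 1.52 against 1.14 in RPTOR, 2.35 against 1.47 in MAPKAP1 and 2.05 against 1.54 in RHEB. In intron clusters, T-to-C was present in 89.4% ± 1.81 of the members' reads and 87.4% ± 0.621 of the rest, a difference of 1.94 ± 1.27 points in the same direction in 3 of 3 replicates (exact sign-flip p = 0.25).

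Some intron clusters of MTOR and RHEB lay opposite exons of other genes, a pattern noticed after the values were seen. MTOR intron 28 contains ANGPTL7, which encodes a secreted angiopoietin-like protein, at chr1:11189355-11195981 on the other strand. Exons of ANGPTL7 cover 1.43% of MTOR and faced 6, 1 and 3 MTOR clusters with 101, 11 and 51 reads, which were 36.2%, 5.47% and 13.6% of MTOR reads. All of these clusters lay in intron 28, among them the largest MTOR clusters of replicates 1 and 3, with 33 and 28 reads. The 2-replicate MTOR site printed above, at 11195225 to 11195314, lies within the ANGPTL7 span. RHEB contains the processed pseudogene ETF1P2 on the other strand at chr7:151501878-151503463, which covers 2.93% of RHEB. This pseudogene faced 4, 2 and 3 clusters with 16%, 8.44% and 11% of RHEB reads (mean 11.8% ± 3.87). They include the largest RHEB clusters of replicates 1 and 3, with 42 and 32 reads. Over all members 21 of 764 intron clusters faced an annotated exon of another gene, 2.80% ± 1.63 per replicate, where 1.69% of all gene-annotated intron clusters do. Without these clusters RPTOR exceeded MTOR by 1.18 on the log2 scale in place of 0.88. The strand of origin of these reads was not tested.

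The wider pathway was described through a list of 79 further genes in 8 groups by role. Every replicate listed 55 of these (69.6%, beside 40.8% of protein-coding genes), while 11 were listed in 2, 8 in 1 and 5 in none. The 5 without a cluster were IRS1, SGK1, LAMTOR2, LAMTOR5 and NPRL2. The median percentile of the 79 genes among genes of like length was 70.3, below the 81.2 of the 10 members and above the 42.3 of all protein-coding genes. Of the 79, 10 lay above the 95th percentile, where 4.96% of all protein-coding genes lie. The list was not matched on transcript level.

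Total normalised reads, which grow with gene length, are given for the genes that follow. Of the substrates and effectors of complex 1, 15 of 19 had clusters in all 3 replicates. GRB10, an adaptor that damps insulin receptor signalling, had 2136 ± 161 normalised reads and exceeded 99.8% of genes of like length in clusters per kb. LARP1, a binder of the mRNAs of ribosomal proteins, had 887 ± 48.4 and exceeded 98.0%. The translation repressors EIF4EBP1 and EIF4EBP2 exceeded 96.7% and 97.0% of genes of like length. Of the PI3K and AKT inputs, 7 of 11 had clusters in all replicates, led by AKT2 (436 ± 110 normalised reads, percentile 98.9) and PDPK1 (285 ± 76.4), both kinases upstream of the TSC complex. Of the AMPK, LKB1 and stress inputs, 7 of 9 did, led by PRKAA1 (207 ± 27.0), the catalytic subunit of AMPK, and GSK3B (177 ± 54.5). In this group PRKAB1, a regulatory subunit of AMPK, exceeded 97.2% of genes of like length and DDIT4, a stress-induced inhibitor of complex 1, exceeded 99.1%.

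Of the Rag GTPases, Ragulator and folliculin, which bring complex 1 to the lysosome, 8 of 13 had clusters in all 3 replicates, with most reads in FLCN (231 ± 87.3, percentile 97.7) and LAMTOR1 (198 ± 42.3, percentile 99.1). Of the GATOR and KICSTOR subunits, which govern the Rag GTPases, 9 of 12 did, led by ITFG2 (247 ± 18.3) and NPRL3 (144 ± 34.1). Of the amino acid sensors 3 of 6 did, with most reads in SESN2 (347 ± 23.5, percentile 99.5), a leucine sensor, and SESN3 (30.9 ± 22.7). Of other subunits and assembly factors 4 of 6 did, led by TTI1 (182 ± 47.8) and TBC1D7 (22.7 ± 8.57), the third subunit of the TSC complex. Of the substrates of complex 2, PRKCA (43.9 ± 10.6) and PRKCE (42.4 ± 5.73) did and SGK1 had no cluster.

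**Figure D5:**
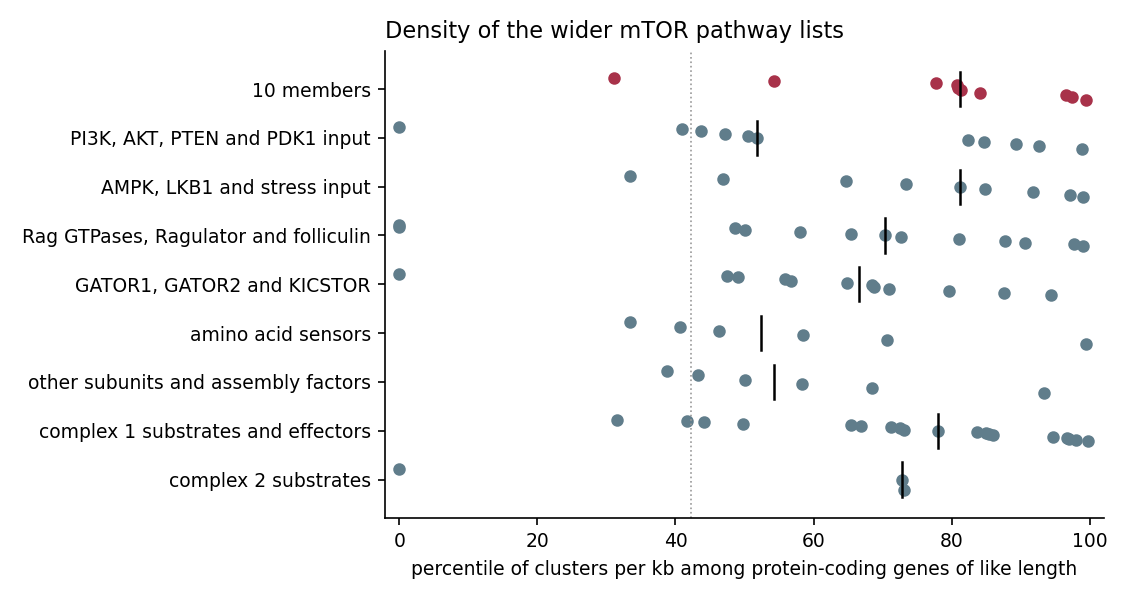
Percentile of clusters per kb among protein-coding genes of like length, 1 point per gene, for the 10 members and the 8 role groups of the wider list, with a black bar at each group's median and a dotted line at 42.3, the median over all protein-coding genes. The members' median is 81.2, and the lowest points of the wider list at 0 are the genes with no cluster.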

How the data were processed

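MATR3 PAR-CLIP libraries of 3 biological replicates in HEK293 were deposited as 1 table of clusters each. Per the file headers, columns for reads, distinct reads, converted positions and conversion events hold raw counts, and T-to-C reads are deposited as a fraction from 0 to 1 of the cluster's reads. The build is hg38, per the submitters' processing notes, and the aligner, cluster caller and annotation release are not given in the sources used here. The tables hold no molecular identifiers, so reads are not independent molecules.

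The members and lists were chosen with earlier results of these data known. Clusters were taken by deposited gene name and read with pandas 2.3.3 and Python 3.11.15. Reads were scaled to 1000000 reads in gene-annotated clusters and divided by the gene span of GENCODE release 44. Of the 13557 deposited gene names, 89.7% were matched to that release, directly or through RefSeq synonyms. A protein-coding gene to which no deposited name was matched was counted as having no cluster. Differences within replicates were tested with exact sign-flip tests (smallest p 0.25), and scripts were tested on simulated data. Like-length genes were at most 25% longer or 20% shorter. Overlap meant at least 1 nt on the same strand. All members were named, with, from the wider list, the 2 genes with most normalised reads in each group and those above the 95th percentile. Sites named were the largest cluster of a member in a replicate and the sites in all 3 replicates. Filters, overlap, length and left-out replicates were varied.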

Additional observations from a re-analysis of the deposited data

Results flagged for a closer look

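Clusters outside the comparisons were listed within 3 gene spans on the strand opposite to the gene. Each was above 3 reads, the limit for a count of 0. Every listed cluster has at least 4 reads, so that limit could not exclude any. In the span of MLST8, replicate 3 listed 3 such clusters with 37 reads in all, at chr16:2204528-2204605, chr16:2204632-2204684 and chr16:2208410-2208446, none with a gene name. In the span of TSC2, replicate 3 listed 2 clusters with 16 reads, of which the one of 10 reads carried the name of the neighbouring gene PKD1. In the span of TSC1, replicate 1 listed 1 cluster with 8 reads and no gene name. None of these was found in another replicate. The MLST8 cluster at chr16:2208410-2208446 and the unnamed TSC2 cluster rested on 1 distinct read each.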

How the results depend on the processing

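Of 181 values recomputed for 20 results, 6 turned direction, 6 moved by more than the limit used (1 SD, or 1.5 times for a count) and 169 did neither. The latter include DEPTOR at 0 under each filter and TSC1 at 0.177 in place of 0.395 with at least 3 conversion locations, both within a wide SD, and the T-to-C difference by a median over clusters, which was 0 and so has no direction. The 4 differences between genes kept their direction under each setting run, over leave-one-out ranges of 0.34 to 0.98 for RPTOR minus RICTOR, 0.45 to 1.29 for RPTOR minus MTOR, -1.35 to -1.10 for MAPKAP1 minus RICTOR and 1.33 to 2.01 for TSC2 minus TSC1. The difference in intron share ranged from 11.7 to 12.6 points, that in T-to-C reads from 1.22 to 2.36 and the number of members in all replicates from 8 to 9 when a replicate was left out. That number was 7 under each of the 3 filters, and the intron difference was 8.02 without RPTOR. The difference in share found in another replicate ranged from -1.64 to 0.284 with a replicate left out, and became -3.62 with at least 3 conversion locations and -1.07 with 50% overlap. The ATCTT difference ranged from -1.94 to 0.425 with a replicate left out and became 1.81 without RPTOR. Sites in all 3 replicates numbered 3 among clusters of median read count or more, 2 with 3 or more conversion locations and 1 with 50% overlap, against 5. This count needs 3 replicates and was not recomputed with one left out. Density moved to 0.515 for MAPKAP1 with at least 3 conversion locations. With only clusters of class intron, over intron length, it moved to 5.80 for AKT1S1 and 5.51 for MLST8. For AKT1S1 that setting leaves out the clusters of class 5′ UTR that lie in intron 1. Removal of clusters opposite exons was added after seeing the data. The causes were not tested. No paired analysis was possible because the samples form 1 group, so no replicate number is shared between groups; differences between genes were taken within replicates. Clusters of few distinct reads limit MLST8, TSC1 and DEPTOR most.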
